A study of Mus musculus with 16 samples.

Results

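Matrix metalloproteinases (MMPs), ADAM and ADAMTS proteases and the tissue inhibitors of metalloproteinases (TIMPs) were followed at the mRNA level in cultured adipose progenitor cells (APCs). Members were the genes whose symbol is Mmp, Adam, Adamts or Timp with a number and that reached a normalized count of 10 in 4 or more of the 16 libraries. A normalized count is a gene's read count divided by the size factor of its library. Of 79 matching symbols among 27179 entries of the table, 47 passed, which were 15 of 23 MMPs, 14 of 33 ADAMs, 15 of 19 ADAMTS genes and 3 of 4 TIMPs. The cells were PDGFRb+ cells sorted by flow cytometry from C57BL/6 mouse adipose tissue, inguinal white fat per the series text, and grown with 10% serum. The 4 groups, of 4 libraries each, were DPP4_neg APCs given PBS as vehicle, DPP4_neg APCs given isoproterenol, DPP4_pos APCs given vehicle and DPP4_pos APCs given isoproterenol, all for 4 h. The labels give isoproterenol, a drug that activates beta-adrenergic receptors, at 10 mM, although micromolar doses are usual in culture, and they do not say how many mice or cultures the libraries came from. The p-values therefore measure the spread between these libraries, which may in part be technical.

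Metzincin proteases share a catalytic zinc ion and cut proteins outside the cell or at its surface. MMPs cut collagens, gelatin and many other matrix proteins, ADAMTS enzymes trim procollagen, proteoglycans and other matrix proteins, and membrane-bound ADAMs release the outer parts of receptors and growth factors. TIMPs bind the active site and block it. In fat, these enzymes and inhibitors remodel the matrix around progenitors and adipocytes as the tissue expands or turns thermogenic.

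The sort was visible in Dpp4 itself, at 15.3 to 24.6 normalized counts in DPP4_neg vehicle and 2853 to 3227 in DPP4_pos vehicle libraries, and Pdgfrb was at 1987 or more in all 16. The 6 markers of DPP4+ interstitial progenitors, Dpp4 included, summed to 8188 to 8653 in DPP4_neg and 11271 to 11699 in DPP4_pos vehicle libraries. With isoproterenol these sums were 11870 to 12606 and 50349 to 54872. Under vehicle 5 of the 6 were higher and 1 lower in DPP4_pos cells (31.6% and 35.0% of all genes). All 6 were higher there with isoproterenol (37.4% of all genes). A library held 9823799 to 28627223 reads in genes. Summed over all genes, normalized counts were highest in the 4 DPP4_pos isoproterenol libraries and lowest in the 4 DPP4_pos vehicle libraries. In DPP4_pos replicate 1, for example, 17189166 reads counted 0.896227 each under vehicle and 16563940 reads counted 1.123565 each with isoproterenol. The part of this shift in the DPP4_pos responses was not tested. Summed markers of other cell types were compared as well. The 15 macrophage and leukocyte markers summed to 450.7 to 1072 normalized counts in DPP4_neg vehicle and 745.0 to 1956 in DPP4_neg isoproterenol libraries. In DPP4_pos libraries they summed to 612.0 to 1429 under vehicle and 691.2 to 1900 with isoproterenol. None of the 15 was at 0 in a whole group. The 8 endothelial markers summed to 160.9 to 216.6 in DPP4_neg and 1105 to 1316 in DPP4_pos libraries, with none at 0 in a group. The 4 epithelial markers (Epcam, Krt8, Krt18 and Cdh1) summed to 105.3 in DPP4_neg isoproterenol replicate 1, 62.3 in DPP4_neg vehicle replicate 4 and 6.6 or less in the other libraries, with Krt18 at 0 in DPP4_pos vehicle and Epcam, Krt8 and Krt18 at 0 in DPP4_pos isoproterenol libraries. The 7 mural markers, genes of pericytes and smooth muscle cells, had a higher sum in DPP4_neg than in DPP4_pos libraries. The sums were 7888 to 8064 and 1814 to 1926 under vehicle, and 5270 to 5628 and 1230 to 1373 with isoproterenol. Taken singly, 1 was higher in DPP4_pos cells under vehicle, 3 were lower and 3 were not called (31.6% and 35.0% of all genes higher and lower). With isoproterenol 3 were higher and 4 lower (37.4% and 37.0% of all genes). The pericyte marker Rgs5, 1 of the 7, had a mean of 8.33 and 5.70 under vehicle, so nearly all of the mural sums came from the other markers. The 4 markers of mature adipocytes summed to 10940 to 12175 under vehicle and 3394 to 3992 with isoproterenol in DPP4_neg libraries, and to 4592 to 5064 and 1204 to 1302 in DPP4_pos libraries, with Lep at 0 in both isoproterenol groups. The part of these cells in the results was not tested except where a value is given beside a gene.

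Isoproterenol changed most members in both populations, and so it did most genes. In DPP4_neg cells 16 members rose, 21 fell and 10 did not pass the test, so that 37 of 47 were called where 65.7% of the 14005 genes tested were called (limma, adjusted p under 0.05 over all genes; 32.1% higher and 33.6% lower). In DPP4_pos cells 12 rose, 26 fell and 9 did not pass, beside 82.7% of all genes called, 39.4% higher and 43.3% lower. The median log2 difference of the members was -0.03 in DPP4_neg and -0.35 in DPP4_pos cells, beside -0.02 and -0.05 for all genes tested. Called differences of at least 2-fold were seen for 12 members (25.5%) in DPP4_neg and 19 (40.4%) in DPP4_pos cells, beside 15.3% and 30.7% of all genes. Between the populations, DPP4_pos libraries were higher for 26 members and lower for 12 under vehicle (66.6% of all genes called, 31.6% higher and 35.0% lower). There 21 members (44.7%) differed at least 2-fold, beside 15.8% of all genes. With isoproterenol, 24 members were higher in DPP4_pos and 15 lower (74.4% of all genes called, 37.4% higher and 37.0% lower), and 20 (42.6%) differed at least 2-fold, beside 18.7% of all genes. Groups did not overlap for 32 of the 47 members in the DPP4_neg response (58.9% of all genes) and 39 in the DPP4_pos response (77.8%). Between the populations they did not overlap for 40 members under vehicle (67.3% of all genes) and 34 with isoproterenol (63.9%). Adamts8, Adamts16, Adam4, Mmp25 and Mmp9 passed the filter wholly or mainly through the groups in which they are high, so their differences from the other groups, and the counts that hold them, are a description. In RNA from bulk cultures, fewer cells of a type and less RNA per cell cannot be told apart.

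**Figure D1:**
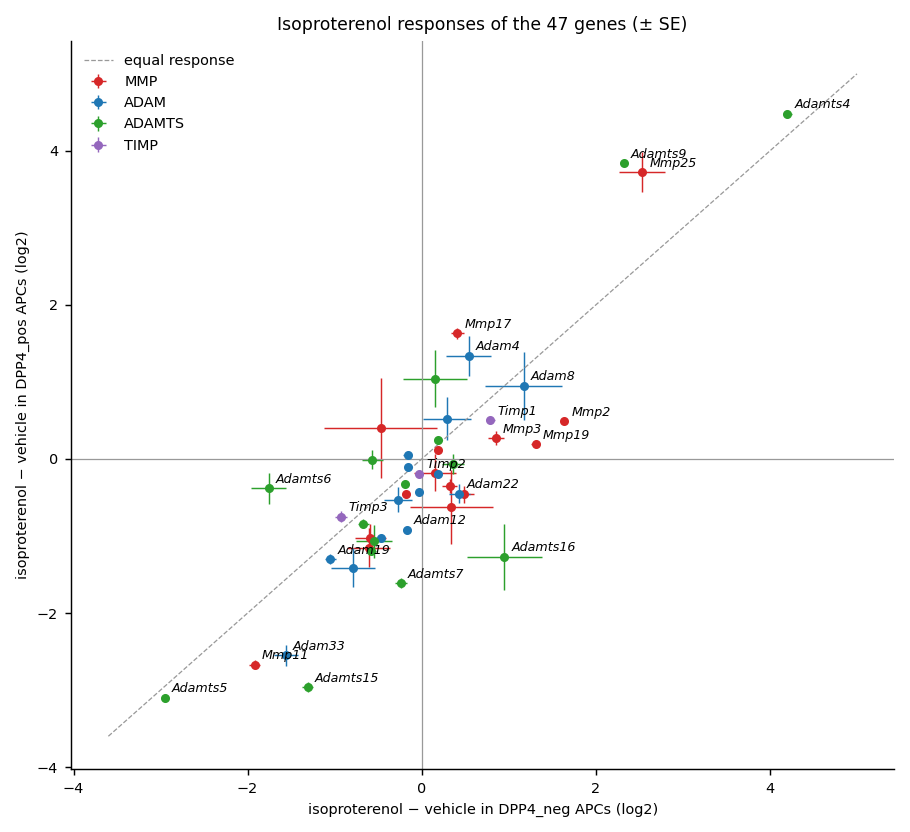
Log2 difference between isoproterenol and vehicle libraries in DPP4_neg cells (x axis) and DPP4_pos cells (y axis) for the 47 genes, coloured by family, with standard errors and a dashed line of equal response. Adamts4 (4.20 and 4.48) and Adamts5 (-2.95 and -3.10) lie at opposite ends of the diagonal, and Mmp2, Mmp17, Adamts7 and Adamts15 lie away from it.

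By direction, 10 members rose in both populations, namely Adamts2, Adamts4, Adamts9, Mmp2, Mmp3, Mmp14, Mmp17, Mmp19, Mmp25 and Timp1, with the DPP4_pos sign of Adamts2, Mmp3, Mmp14 and Mmp19 turning under quantile normalization. Another 18 fell in both. Mmp15, Mmp28, Adam15 and Adam22 rose in DPP4_neg and fell in DPP4_pos cells, with the DPP4_pos sign of Mmp15 and Mmp28 turning under quantile normalization. Mmp8, Mmp9, Mmp12 and Adam1a passed the test in neither. The share of all genes with each of these joint patterns was not counted, so the counts describe the members only. Of all genes, 65.7% were called in the DPP4_neg and 82.7% in the DPP4_pos response. The difference between the 2 responses was itself called for 29 members, 7 with a more positive and 22 with a more negative response in DPP4_pos cells (62.6% of all genes called, 31.6% and 31.0% in each direction).

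The ADAMTS proteoglycanases gave the widest swings with isoproterenol, and they moved in opposite directions. These enzymes cut the core proteins of versican, aggrecan and related proteoglycans. Adamts4, known as aggrecanase-1, was at 510.1, 528.7, 581.9 and 528.5 normalized counts in the DPP4_neg vehicle libraries and at 9510, 10474, 10397 and 9170 with isoproterenol. Among DPP4_pos libraries it went from 630.0, 613.1, 589.0 and 645.5 to 14495, 13386, 13689 and 13909. All isoproterenol libraries were thus far above all vehicle libraries, by 18.4-fold in DPP4_neg (log2 difference 4.20 ± 0.05, SE; adjusted p = 3.82e-25) and 22.4-fold in DPP4_pos cells (4.48 ± 0.05; adjusted p = 5.73e-26). The response was 0.28 ± 0.07 larger on the log2 scale in DPP4_pos cells (adjusted p = 0.000844), but -0.10 ± 0.07 after quantile normalization (adjusted p = 0.217).

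Adamts5, aggrecanase-2, did the reverse. It was at 7056, 8191, 8263 and 6918 in DPP4_neg vehicle libraries and at 1058, 906.0, 1002 and 964.7 with isoproterenol. The DPP4_pos values were 20740, 20816, 21517 and 21337 under vehicle and 2612, 2404, 2481 and 2336 with isoproterenol. No isoproterenol library reached a vehicle library of its population, and the falls were 7.72-fold (log2 difference -2.95 ± 0.05, adjusted p = 2.22e-21) and 8.59-fold (-3.10 ± 0.05, adjusted p = 4.69e-22). Their difference did not pass the test (-0.15 ± 0.08, adjusted p = 0.0911), although it did with TMM factors (-0.22 ± 0.08, adjusted p = 0.0186), after quantile normalization (-0.41 ± 0.07, adjusted p = 6.82e-05) and without DPP4_neg vehicle replicate 2 or 3 or DPP4_neg isoproterenol replicate 2 (each -0.19).

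Adamts9, which also cuts versican and aggrecan, rose in both populations from opposite starting points. Its values were 753.4, 782.8, 828.8 and 742.9 in DPP4_neg vehicle, 3966, 3704, 4067 and 3767 in DPP4_neg isoproterenol, 316.4, 332.2, 333.0 and 335.4 in DPP4_pos vehicle and 4538, 4545, 5052 and 4852 in DPP4_pos isoproterenol libraries. The rise was 4.98-fold in DPP4_neg (2.32 ± 0.04, adjusted p = 3.95e-21) and 14.4-fold in DPP4_pos cells (3.84 ± 0.04, adjusted p = 3.05e-25), a difference of 1.53 ± 0.06 (adjusted p = 1.26e-14). Adamts9 was therefore lower in DPP4_pos than in DPP4_neg cells under vehicle (-1.24 ± 0.04, adjusted p = 2.42e-16) and higher with isoproterenol (0.29 ± 0.04, adjusted p = 4.32e-06), the latter not after quantile normalization (0.03 ± 0.04, adjusted p = 0.503). Part of its exon bases is shared with genes on the opposite strand, and the counting is not stated to use strand.

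Adamts15, a further aggrecan-cutting enzyme, marked the DPP4_pos cells and lost most of its mRNA there. It was at 4200, 4329, 4394 and 4304 in DPP4_pos vehicle libraries and at 593.2, 583.6, 523.2 and 518.6 with isoproterenol. In DPP4_neg cells it was at 445.3, 510.2, 497.9 and 422.9 under vehicle and 175.7, 179.9, 211.4 and 185.1 with isoproterenol. The 4 groups did not overlap within any comparison of treatment or population. The vehicle difference between the populations was 9.19-fold (3.20 ± 0.06, adjusted p = 1.45e-20). Isoproterenol lowered Adamts15 2.49-fold in DPP4_neg (-1.31 ± 0.06, adjusted p = 7.57e-14) and 7.77-fold in DPP4_pos cells (-2.96 ± 0.06, adjusted p = 1.95e-20), and these responses differed by -1.64 ± 0.09 (adjusted p = 1.79e-12).

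Adamts1, the first ADAMTS enzyme described and a versican-cutting one, moved little beside its relatives. It was at 3642, 4125, 4055 and 3589 in DPP4_neg vehicle, 3483, 3291, 3289 and 3447 in DPP4_neg isoproterenol, 9706, 9205, 9159 and 9285 in DPP4_pos vehicle and 7612, 7314, 7389 and 7528 in DPP4_pos isoproterenol libraries. It fell by 0.19 ± 0.04 (adjusted p = 0.000395) and 0.32 ± 0.04 (adjusted p = 2.43e-07) on the log2 scale, and was 2.43-fold higher in DPP4_pos cells under vehicle (1.28 ± 0.04, adjusted p = 3.2e-17). Adamts8 was near the filter, with means of 5.26, 6.25, 7.24 and 15.0 in DPP4_neg vehicle, DPP4_neg isoproterenol, DPP4_pos vehicle and DPP4_pos isoproterenol libraries. It reached 10 only in the 4 DPP4_pos isoproterenol libraries, at 12.4, 12.2, 20.5 and 15.0, through which it passed the filter, so its higher level there is a description.

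Set per kilobase of annotated exon, so that genes can be compared, the proteoglycanases changed in make-up more than in sum. Adamts4 held 6.82 ± 0.39% of their summed level in DPP4_neg vehicle and 67.1 ± 1.91% in DPP4_neg isoproterenol libraries (SD, n = 4), and 3.01 ± 0.11% and 59.0 ± 0.49% in DPP4_pos libraries. Adamts5 went from 42.9 ± 0.70% to 2.98 ± 0.25% and from 45.6 ± 0.79% to 4.66 ± 0.17%. Adamts1 held 44.3 ± 0.49%, 20.9 ± 1.4%, 41.1 ± 0.96% and 28.8 ± 0.29% in the same order of groups. The sum itself went from 1641 ± 129 to 3061 ± 118 normalized counts per kb in DPP4_neg and from 4285 ± 34.5 to 4891 ± 127 in DPP4_pos cells. Normalized counts of all genes also summed to more in DPP4_pos isoproterenol than in DPP4_pos vehicle libraries. Exon lengths are unions over all annotated transcripts and overstate the length of the RNA present, so these shares depend on the annotation.

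**Figure D2:**
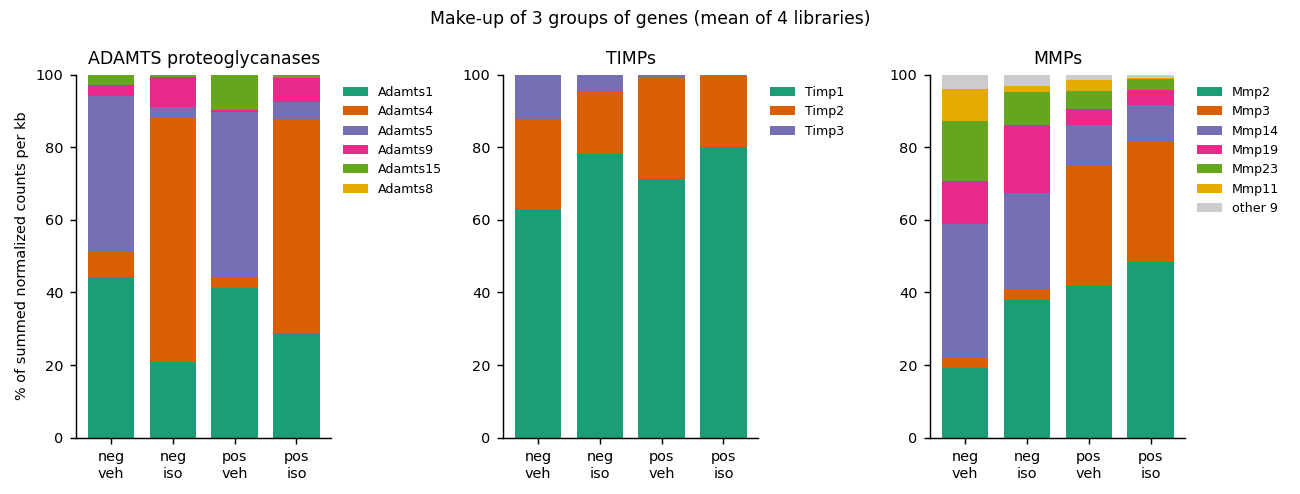
Share of each gene in the summed normalized counts per kilobase of the ADAMTS proteoglycanases, the TIMPs and the MMPs, as the mean of the 4 libraries of each group (neg and pos, DPP4_neg and DPP4_pos; veh, vehicle; iso, isoproterenol). Adamts4 takes the place of Adamts5 with isoproterenol in both populations, Timp3 is visible in DPP4_neg libraries, and Mmp2 and Mmp3 fill most of the DPP4_pos MMP bars.

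Promoter windows from RefSeq (GRCm38.p6, 250 bases before to 50 after a start) were at hand for 27 of the 47 members, in 31 windows. They were searched on both strands for the cAMP response element TGACGTCA, its shorter core TGACG (which every full element also holds), and the AP-1 site TGANTCA, the letters that CREB and AP-1 factors are known to bind. The full element was found in 0 of the 31 windows, beside 1.79% of all 32851 windows. TGACG was found in 6 of 31 (19.4%, beside 20.8% of all windows) and TGANTCA in 3 of 31 (9.68%, beside 7.81%). The shares of the members were thus close to those of all windows. Adamts9 and Adamts1 are shown because both hold a TGACG, although its part in their levels was not tested. The capitals mark it, 218 and 170 bases before the start of the window's RefSeq entry. For Adamts1 the bases just after that start were found near the beginning of a transcript of the gene in GENCODE M21, as in 25 of the 31 windows. For Adamts9 they were not found near the beginning of any. The stretch shown lies inside the annotated Adamts9 gene, which reaches to 92944450 on the minus strand.
Adamts9 (GRCm38.p6, chr6:92943665-92943784, minus strand, 250 to 131 bases before the RefSeq entry's start, within the annotated gene): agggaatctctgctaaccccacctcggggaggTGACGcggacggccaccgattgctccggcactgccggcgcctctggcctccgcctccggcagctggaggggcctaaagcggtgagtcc
Adamts1 (GRCm38.p6, chr16:85803244-85803363, minus strand, 250 to 131 bases before the start): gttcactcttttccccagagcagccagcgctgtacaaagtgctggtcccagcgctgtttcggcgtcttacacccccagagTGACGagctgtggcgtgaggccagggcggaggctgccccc

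The remaining ADAMTS genes moved less than Adamts4 and Adamts5. Adamts2, which removes the N-propeptide of fibrillar procollagens, was the ADAMTS gene with the highest level per kb under vehicle in both populations (1482 and 2569 normalized counts per kb). It rose by 0.19 ± 0.04 in DPP4_neg (means 13837 to 15830, adjusted p = 7.84e-05) and by 0.24 ± 0.04 in DPP4_pos cells (23985 to 28375, adjusted p = 2.64e-06), but by quantile normalization the latter was -0.04 ± 0.03 (adjusted p = 0.283). Adamts3, of the same function, fell in DPP4_neg cells (means 143.5 to 96.4, -0.57 ± 0.12, adjusted p = 0.000411) and had means of 41.6 and 41.4 in DPP4_pos cells (-0.01 ± 0.12, adjusted p = 0.916; 0.52 ± 0.13 after quantile normalization). Adamts14, the third of them, lay between 87.9 and 152.8 in all libraries. Its rise in DPP4_neg cells (0.36 ± 0.13, adjusted p = 0.0191) lost the call without DPP4_neg vehicle replicate 3 (0.32) or DPP4_neg isoproterenol replicate 2 or 3 (0.32 and 0.28).

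Adamts6 and Adamts10, enzymes tied to fibrillin microfibrils, fell. Adamts6 was at 230.3, 183.0, 203.3 and 204.3 in DPP4_neg vehicle and 67.2, 38.2, 58.4 and 85.3 in DPP4_neg isoproterenol libraries, a fall of 3.38-fold (-1.76 ± 0.20, adjusted p = 7.01e-08). Its DPP4_pos values were 33.2, 37.2, 26.6 and 24.5 under vehicle and 20.2, 19.2, 24.8 and 28.2 with isoproterenol, where the groups overlapped (-0.38 ± 0.20, adjusted p = 0.0814). That fall did pass with TMM factors (-0.43 ± 0.20, adjusted p = 0.0483) and without DPP4_neg isoproterenol replicate 2 (-0.38), DPP4_pos vehicle replicate 4 (-0.47) or DPP4_pos isoproterenol replicate 4 (-0.47). The responses differed by 1.38 ± 0.28 (adjusted p = 0.000189), and under vehicle Adamts6 was 6.64-fold lower in DPP4_pos cells (-2.73 ± 0.20, adjusted p = 4.98e-11). Adamts10 had means of 859.7 and 575.2 in DPP4_neg and 902.6 and 392.4 in DPP4_pos cells (-0.58 ± 0.05 and -1.20 ± 0.05).

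Adamts7 and Adamts12 cut cartilage oligomeric matrix protein (COMP). Adamts7 was at 238.7, 231.7, 251.5 and 216.5 in DPP4_neg vehicle, 197.6, 194.6, 190.9 and 211.3 in DPP4_neg isoproterenol, 468.7, 424.3, 423.3 and 517.0 in DPP4_pos vehicle and 155.1, 153.3, 140.3 and 148.5 in DPP4_pos isoproterenol libraries. The order of the populations was reversed between treatments: DPP4_pos libraries were 1.95-fold higher under vehicle (0.96 ± 0.07, adjusted p = 1.36e-10) and 1.33-fold lower with isoproterenol (-0.41 ± 0.07, adjusted p = 3.36e-05). The fall was 3.05-fold in DPP4_pos cells (-1.61 ± 0.07, adjusted p = 6.78e-15). In DPP4_neg cells it was 1.18-fold (-0.24 ± 0.07, adjusted p = 0.00699), which quantile normalization brought to -0.13 ± 0.07 (adjusted p = 0.127). Adamts12 fell in both populations (means 4757 to 3010 and 2018 to 1126) and was 2.36-fold lower in DPP4_pos cells under vehicle (-1.24 ± 0.06, adjusted p = 5.23e-14). Of its substrate, Comp mRNA was also far lower in DPP4_pos vehicle libraries (224.4 beside 2554, -3.50 ± 0.06, adjusted p = 2.51e-22).

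Of the other ADAMTS genes, Adamts19 fell in DPP4_pos cells (means 102.0 to 49.5, -1.07 ± 0.21, adjusted p = 9.24e-05). In DPP4_neg cells its means were 79.8 and 55.5 with overlapping groups (-0.55 ± 0.21, adjusted p = 0.0289). That call was lost without DPP4_neg vehicle replicate 2 or 3 (-0.48 and -0.45) or DPP4_neg isoproterenol replicate 2 or 4 (-0.40 and -0.45). Adamts16 had only 3 reads over the 4 DPP4_neg vehicle libraries and 71 over the 4 DPP4_pos vehicle libraries, a ratio of normalized reads of 27.8 (95% counting interval 9.13 to 138). With isoproterenol it had 8 and 17 reads, a ratio of 3.17 (1.29 to 8.47). Adamts16 reached 10 in 5 libraries, all of them DPP4_pos, through which it passed the filter, so these ratios are a description.

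The summed MMP level differed more between the populations than between the treatments. Summed per kb, the 15 MMPs were at 4462 ± 59.4 normalized counts in DPP4_neg vehicle, 7067 ± 178 in DPP4_neg isoproterenol, 23580 ± 484 in DPP4_pos vehicle and 28471 ± 638 in DPP4_pos isoproterenol libraries. The sum over all genes was also higher in the DPP4_pos isoproterenol than in the DPP4_pos vehicle libraries, and its part in the MMP rise was not tested. The leading MMP of DPP4_neg vehicle cells was Mmp14 (37.0 ± 0.61% of the sum), while Mmp2 (41.8 ± 0.96%) and Mmp3 (33.1 ± 1.07%) together made up most of the sum in DPP4_pos vehicle cells. Under vehicle 9 of the 15 were higher in DPP4_pos and 4 lower, beside 31.6% and 35.0% of all genes.

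Mmp2, the gelatinase that fibroblasts secrete in bulk, was at 2904, 2775, 2961 and 2892 in DPP4_neg vehicle and 33884, 32921, 31578 and 34395 in DPP4_pos vehicle libraries. With isoproterenol it was at 8869, 9183, 8958 and 9006 in DPP4_neg and 46463, 45793, 47483 and 46480 in DPP4_pos libraries. No 2 groups overlapped, and even the lowest DPP4_pos vehicle library was above all DPP4_neg isoproterenol libraries. DPP4_pos cells had 11.5-fold more under vehicle (3.52 ± 0.03, adjusted p = 2.32e-26) and 5.17-fold more with isoproterenol (2.37 ± 0.03, adjusted p = 2.63e-23). The rise with isoproterenol was 3.12-fold in DPP4_neg cells (1.64 ± 0.03, adjusted p = 5.91e-21) and smaller in DPP4_pos cells (0.49 ± 0.03, adjusted p = 5.32e-12), a difference of -1.15 ± 0.05 (adjusted p = 7e-15).

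Mmp9, the other gelatinase, was low, with means of 7.19 ± 3.52, 12.9 ± 16.2, 46.9 ± 6.83 and 30.6 ± 7.35 in DPP4_neg vehicle, DPP4_neg isoproterenol, DPP4_pos vehicle and DPP4_pos isoproterenol libraries. Every DPP4_pos vehicle library was above every DPP4_neg vehicle library. Neither response to isoproterenol passed the test (adjusted p = 0.551 and 0.24). A single DPP4_neg isoproterenol library, replicate 1, stood at 37.3 where the other 3 were at 3.94 to 5.87. That library had the lowest macrophage and leukocyte sum of its group (745.0) and the highest epithelial sum of all 16 libraries (105.3, beside 1.6 to 6.6 in the other 3 of its group), and the part of either was not tested. The log2 difference in DPP4_neg cells was 0.34 ± 0.48 with it and -0.34 ± 0.35 without it, and passed the test in neither.

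Mmp3, stromelysin-1, which cuts many matrix proteins and activates other MMPs, was the member that differed most between the populations. It was at 196.7, 243.4, 192.7 and 228.7 in DPP4_neg vehicle and 14668, 13951, 14074 and 13495 in DPP4_pos vehicle libraries, 65.2-fold apart (6.03 ± 0.09, adjusted p = 4.69e-23). With isoproterenol it was at 312.6, 423.6, 455.9 and 376.7 in DPP4_neg and 16249, 17152, 18250 and 16029 in DPP4_pos libraries, 43.4-fold apart (5.44 ± 0.09, adjusted p = 2e-22). The rise was 1.81-fold in DPP4_neg cells (0.85 ± 0.09, adjusted p = 1.41e-08). In DPP4_pos cells the rise was 1.20-fold (0.27 ± 0.09, adjusted p = 0.00713), but -0.18 ± 0.08 after quantile normalization (adjusted p = 0.062).

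Mmp11, stromelysin-3, fell in both populations. It went from 1076, 1105, 1187 and 1108 to 292.3, 281.2, 318.6 and 286.1 in DPP4_neg and from 1873, 2021, 2090 and 2121 to 367.4, 308.4, 287.9 and 310.1 in DPP4_pos libraries. The falls were 3.79-fold (-1.92 ± 0.06, adjusted p = 5.31e-17) and 6.37-fold (-2.67 ± 0.06, adjusted p = 6.65e-20), and the vehicle groups differed 1.81-fold (0.86 ± 0.06, adjusted p = 8.31e-11). With isoproterenol the populations overlapped (0.11 ± 0.06, adjusted p = 0.129). The difference passed after quantile normalization (0.15 ± 0.06, adjusted p = 0.0309) and without DPP4_pos isoproterenol replicate 3 (0.15 ± 0.06, adjusted p = 0.0362).

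Mmp3 lies in a run of 10 Mmp genes on chromosome 9 of GRCm38.p6, from 7272514 to 7699585, over 427 kb. Of these only Mmp12, Mmp3, Mmp8 and Mmp27 passed the filter, and Mmp13, Mmp1b, Mmp1a, Mmp10, Mmp20 and Mmp7 did not, with Mmp10 reaching 13.4 in a single library. Mmp27, whose protein is kept inside the cell, was at 16.8, 16.6, 22.4 and 18.3 in DPP4_neg vehicle and 521.6, 543.2, 545.6 and 539.0 in DPP4_pos vehicle libraries, 27.8-fold apart (4.80 ± 0.18, adjusted p = 4.7e-16). Unlike Mmp3 it fell with isoproterenol in DPP4_pos cells, to 241.6, 254.4, 279.1 and 287.5 (-1.02 ± 0.18, adjusted p = 2.21e-05). In DPP4_neg cells it was at 20.2, 10.3, 7.89 and 11.8 with isoproterenol (-0.59 ± 0.18, adjusted p = 0.00631), a call that did not hold with edgeR (adjusted p = 0.0508) or DESeq2 (0.0634). Mmp8, the neutrophil collagenase, was low but higher in DPP4_pos cells under vehicle (means 10.1 and 27.8, 2.64-fold, adjusted p = 2.47e-05), and passed the test for neither response.

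The bases just before the starts of Mmp3 and Mmp27 are shown because these genes share the high level in DPP4_pos cells and differ in their response. The capitals mark the AP-1 letters, 46 bases before the start of Mmp3. The Mmp27 stretch holds no TGANTCA. The other members with TGANTCA in a window were Mmp12, which passed the test in no comparison, and Adam19, which fell in both populations. The part of these letters in the levels was not tested.
Mmp3 (GRCm38.p6, chr9:7445702-7445821, plus strand, 120 to 1 bases before the start): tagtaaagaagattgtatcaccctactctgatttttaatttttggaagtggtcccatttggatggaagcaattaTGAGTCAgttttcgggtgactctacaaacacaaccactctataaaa
Mmp27 (GRCm38.p6, chr9:7571276-7571395, plus strand, 120 to 1 bases before the start): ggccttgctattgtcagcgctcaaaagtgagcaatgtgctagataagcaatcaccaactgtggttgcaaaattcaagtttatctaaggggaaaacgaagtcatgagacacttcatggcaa

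**Figure D3:**
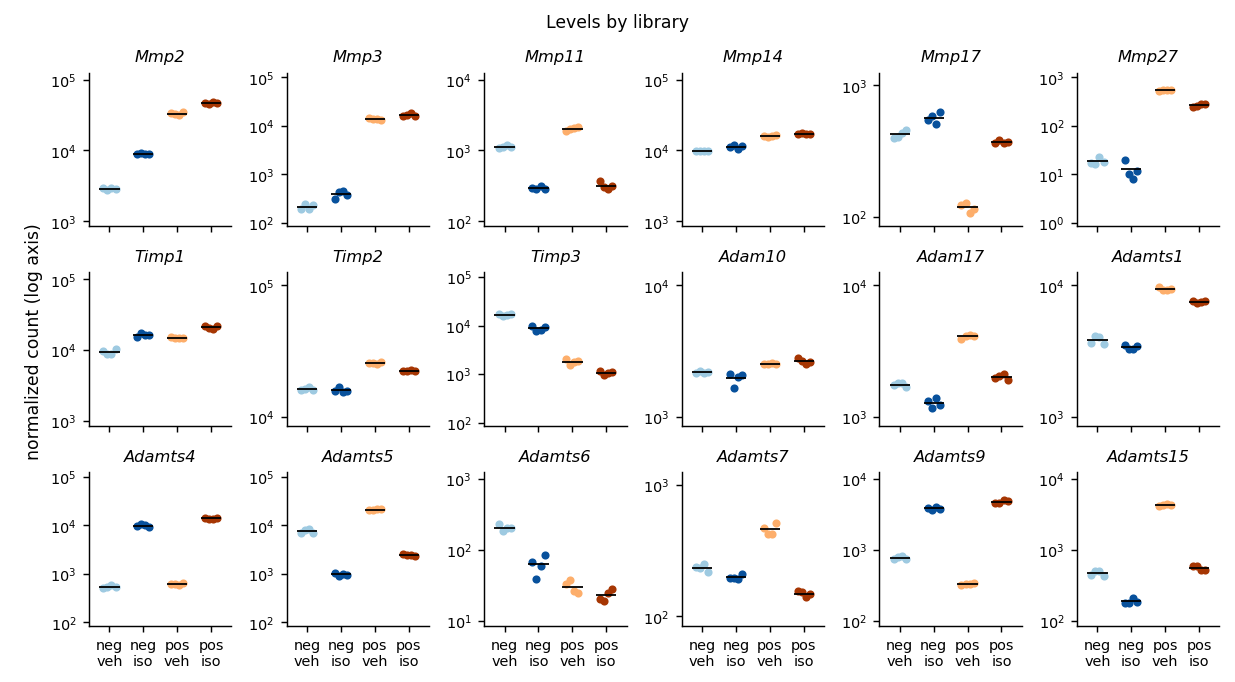
Normalized counts on log axes of the 18 genes given library by library, each dot a library and each bar the mean of 4 (neg and pos, DPP4_neg and DPP4_pos; veh, vehicle; iso, isoproterenol). Adamts4 and Adamts9 rise and Adamts5 and Mmp11 fall in both populations, while Mmp2, Mmp3, Mmp27 and Timp3 separate the populations.

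Among the membrane-type MMPs, 4 of 5 were called higher in DPP4_neg cells and 3 of 5 in DPP4_pos cells, beside 32.1% and 39.4% of all genes. Both counts hold Mmp25, which passed the filter mainly through the isoproterenol libraries, so they are a description. Mmp14, the collagenase of the cell surface that also activates pro-MMP2, was high and steady. It was at 9933, 9731, 9853 and 9861 in DPP4_neg vehicle, 11180, 11803, 10485 and 11372 in DPP4_neg isoproterenol, 16171, 15448, 15780 and 16363 in DPP4_pos vehicle and 17182, 17462, 17300 and 16925 in DPP4_pos isoproterenol libraries. DPP4_pos cells had 1.62-fold more under vehicle (0.69 ± 0.03, adjusted p = 5.67e-14). The rise in DPP4_neg cells was 0.19 ± 0.03 (adjusted p = 5.61e-05). That in DPP4_pos cells was 0.11 ± 0.03 (adjusted p = 0.00482), but 0.06 ± 0.03 with TMM factors (adjusted p = 0.14), 0.07 with edgeR (adjusted p = 0.0805) and -0.32 ± 0.03 after quantile normalization.

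Mmp17, anchored to the membrane by a lipid, was at 399.6, 405.0, 437.4 and 454.7 in DPP4_neg vehicle, 550.7, 582.2, 506.3 and 623.5 in DPP4_neg isoproterenol, 123.7, 128.6, 108.0 and 114.9 in DPP4_pos vehicle and 365.2, 381.6, 362.4 and 372.1 in DPP4_pos isoproterenol libraries. It was 3.55-fold lower in DPP4_pos cells under vehicle (-1.83 ± 0.07, adjusted p = 6.98e-16) and 1.52-fold lower with isoproterenol. It rose 1.33-fold in DPP4_neg (0.41 ± 0.07, adjusted p = 2.27e-05) and 3.11-fold in DPP4_pos cells (1.63 ± 0.07, adjusted p = 2.18e-15), a difference of 1.22 ± 0.10 (adjusted p = 6.55e-10). Mmp25, the other lipid-anchored member, was higher with isoproterenol from a very low level, with means of 6.42 and 39.6 in DPP4_neg and 2.53 and 46.5 in DPP4_pos cells and no overlap in either, but it passed the filter mainly through the isoproterenol libraries. Mmp15 rose in DPP4_neg (means 203.1 to 253.2, 0.32 ± 0.09, adjusted p = 0.00504) and fell in DPP4_pos cells (117.2 to 91.8, -0.35 ± 0.09, adjusted p = 0.00191; 0.10 ± 0.10 after quantile normalization). Mmp16 was at 29.0 or below in all libraries. It fell in DPP4_pos cells (means 22.3 to 9.82, -1.15 ± 0.25, adjusted p = 0.000202), and its fall in DPP4_neg cells (24.3 to 15.6, -0.61 ± 0.25, adjusted p = 0.0341) lost the call without DPP4_neg vehicle replicate 1, 3 or 4 or DPP4_neg isoproterenol replicate 1 or 2 (-0.51 to -0.62).

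Mmp19, a secreted MMP of basement membrane proteins, rose 2.48-fold in DPP4_neg cells (means 1880 to 4655, 1.31 ± 0.05, adjusted p = 3.95e-15). In DPP4_pos cells the means were 3567 and 4093 with overlapping groups (0.19 ± 0.05, adjusted p = 0.00282), and after quantile normalization the sign turned (-0.18 ± 0.05, adjusted p = 0.00429). The responses differed by -1.12 ± 0.08 (adjusted p = 5.9e-11). Of its exon bases 28.3% are shared with genes on the opposite strand. Mmp23 fell in both populations (means 1697 to 1505 and 2779 to 2027). Mmp28, epilysin, rose in DPP4_neg (202.7 to 286.2, 0.49 ± 0.11, adjusted p = 0.00038) and fell in DPP4_pos cells (75.3 to 54.7, -0.46 ± 0.11, adjusted p = 0.000436; 0.08 ± 0.11 after quantile normalization), and was 2.68-fold lower in DPP4_pos cells under vehicle (-1.42 ± 0.11, adjusted p = 9.07e-11). Mmp12, the macrophage elastase, ranged from 1.62 to 29.1 and passed the test in no comparison. Its lowest value fell in the library with the lowest macrophage and leukocyte sum in the DPP4_neg isoproterenol (1.62, sum 745.0), DPP4_pos vehicle (3.54, sum 612.0) and DPP4_pos isoproterenol groups (10.2, sum 691.2). In DPP4_neg vehicle it did not (2.24 in replicate 3, with the lowest sum, 450.7, in replicate 1), nor was the highest DPP4_pos vehicle value (27.9, replicate 4) in the library with the highest sum (1429, replicate 1).

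The 3 inhibitors that passed the filter each behaved differently. Timp1, secreted and known to be induced by cytokines and growth factors, was at 9706, 8886, 8916 and 10447 in DPP4_neg vehicle and 15570, 17235, 16186 and 16334 in DPP4_neg isoproterenol libraries. The DPP4_pos libraries were at 15137, 14796, 14676 and 14695 under vehicle and 21641, 20722, 19885 and 21700 with isoproterenol. It rose without overlap in both, by 1.72-fold (0.79 ± 0.05, adjusted p = 1.41e-12) and 1.41-fold (0.50 ± 0.05, adjusted p = 1.44e-09), the latter only 0.07 ± 0.05 after quantile normalization (adjusted p = 0.151). Under vehicle it was 1.57-fold higher in DPP4_pos cells (0.65 ± 0.05, adjusted p = 4.11e-11). Timp1 is shown with its TGACG in capitals, 84 bases before the start. Of the other members with TGACG in a window, Adamts9 rose and Adamts1 and Adamts12 fell in both populations. Adamts3 and Adam10 fell in DPP4_neg cells and were not called in DPP4_pos cells. The part of these letters in the levels was not tested.
Timp1 (GRCm38.p6, chrX:20870046-20870165, plus strand, 120 to 1 bases before the start): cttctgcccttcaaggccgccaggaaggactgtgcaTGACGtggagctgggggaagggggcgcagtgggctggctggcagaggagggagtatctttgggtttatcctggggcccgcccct

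Timp2, which together with MMP14 binds pro-MMP2 at the cell surface, was the steadiest inhibitor. It was at 16049, 16287, 16672 and 15920 in DPP4_neg vehicle and 15721, 16729, 15419 and 15681 in DPP4_neg isoproterenol libraries, which overlapped (-0.03 ± 0.03, adjusted p = 0.388). In DPP4_pos cells it went from 25454, 25417, 25168 and 25866 to 22260, 22306, 22480 and 22442, a fall of 1.14-fold (-0.19 ± 0.03, adjusted p = 1.09e-05). Timp2 was 1.57-fold higher in DPP4_pos cells under vehicle (0.65 ± 0.03, adjusted p = 4.08e-14).

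Timp3, the inhibitor bound to the matrix and the one known to block ADAM17 and the aggrecanases ADAMTS4 and ADAMTS5, marked the DPP4_neg cells. It was at 17348, 15926, 16309 and 17601 in DPP4_neg vehicle and 2006, 1572, 1739 and 1859 in DPP4_pos vehicle libraries, 9.39-fold apart (-3.23 ± 0.07, adjusted p = 1.04e-19). With isoproterenol it was at 9866, 7853, 8111 and 9515 in DPP4_neg and 1138, 951.3, 1048 and 1114 in DPP4_pos libraries. It fell without overlap by 1.91-fold (-0.93 ± 0.07, adjusted p = 2.85e-10) and 1.68-fold (-0.75 ± 0.07, adjusted p = 4.58e-09). The difference of the responses did not pass the test in the fit without a replicate block (0.18 ± 0.10, adjusted p = 0.141). The sum of the 7 mural markers moved the same way as Timp3, with means of 7965, 5420, 1877 and 1303 in DPP4_neg vehicle, DPP4_neg isoproterenol, DPP4_pos vehicle and DPP4_pos isoproterenol libraries. The single markers did not all do so. With isoproterenol 1 rose and 4 fell in DPP4_neg cells (32.1% and 33.6% of all genes). In DPP4_pos cells 3 rose and 4 fell (39.4% and 43.3% of all genes). The part of mural cells was not tested. Of the exon bases of Timp3, 21.3% are shared with Syn3 on the opposite strand. Per kb, Timp1 held 63.1 ± 1.73%, 78.1 ± 0.80%, 71.2 ± 0.37% and 80.1 ± 0.69% of the summed TIMP level in the same order of groups, and Timp3 12.2 ± 0.18%, 4.62 ± 0.63%, 0.94 ± 0.09% and 0.44 ± 0.03%. Timp4 lay below the filter, with 10.6 as its highest value.

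**Figure D4:**
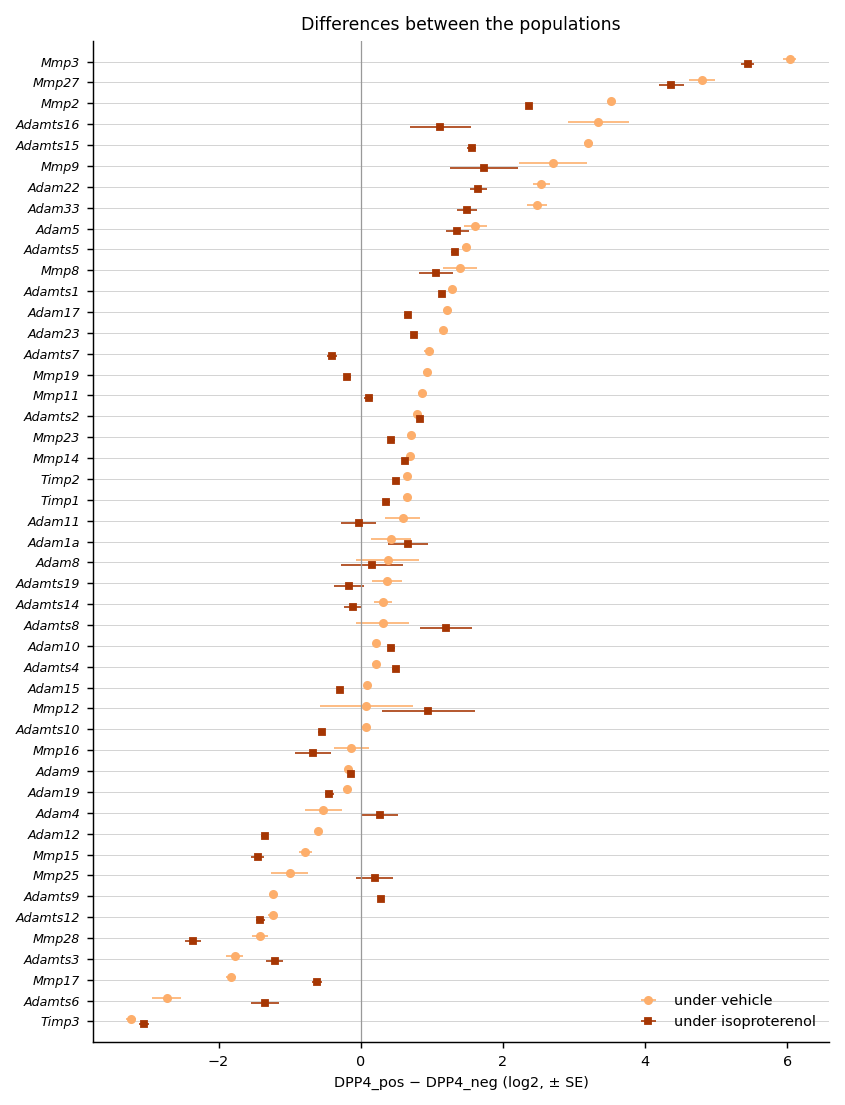
Log2 difference between DPP4_pos and DPP4_neg libraries under vehicle (circles) and with isoproterenol (squares) for the 47 genes, ordered by the vehicle difference, with standard errors. Mmp3, Mmp27 and Mmp2 stand at the DPP4_pos end and Timp3 at the DPP4_neg end under both treatments, while Adamts9, Adamts7 and Mmp19 change side.

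Of the 14 ADAMs, 7 fell and 3 rose in DPP4_neg cells (33.6% and 32.1% of all genes), and 10 fell and 1 rose in DPP4_pos cells (43.3% and 39.4% of all genes). Adam17, the enzyme that sheds TNF and several EGF receptor ligands, was at 1733, 1797, 1795 and 1681 in DPP4_neg vehicle and 1311, 1167, 1380 and 1217 in DPP4_neg isoproterenol libraries. Its DPP4_pos values were 3917, 4130, 4170 and 4081 under vehicle and 1958, 2030, 2116 and 1915 with isoproterenol. The groups did not overlap, with falls of 1.38-fold (-0.47 ± 0.05, adjusted p = 9.61e-09) and 2.03-fold (-1.02 ± 0.05, adjusted p = 5.32e-15) that differed by -0.56 ± 0.06 (adjusted p = 1.92e-07). Under vehicle DPP4_pos cells had 2.33-fold more (1.22 ± 0.05, adjusted p = 5.76e-16).

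Adam10, the sheddase of Notch receptors and cadherins and the closest relative of Adam17, moved far less. It was at 2156, 2221, 2154 and 2173 in DPP4_neg vehicle, 2125, 1652, 1989 and 2076 in DPP4_neg isoproterenol, 2534, 2499, 2579 and 2524 in DPP4_pos vehicle and 2770, 2664, 2514 and 2588 in DPP4_pos isoproterenol libraries. The difference in DPP4_neg cells (-0.16 ± 0.05, adjusted p = 0.0153) was -0.08 ± 0.03 without DPP4_neg isoproterenol replicate 2, the library at 1652 (adjusted p = 0.0585). The DPP4_pos difference was 0.05 ± 0.05 (adjusted p = 0.356), and -0.28 ± 0.05 after quantile normalization. Adam10 was 1.16-fold higher in DPP4_pos cells under vehicle (0.22 ± 0.05, adjusted p = 0.00128).

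Adam9 was the ADAM with the highest level per kb in all 4 groups (39.5% to 49.4% of the sum of the 14), and it fell slightly in both populations (means 9548 to 8539 and 8408 to 7812). Adam12 and Adam19, proteases with known roles in mesenchymal cells, fell as well. Adam12 went from means of 5714 to 5102 (-0.17 ± 0.05, adjusted p = 0.00436) and 3771 to 1995 (-0.92 ± 0.05, adjusted p = 6.95e-14), and Adam19 from 4473 to 2158 (-1.05 ± 0.06) and 3928 to 1593 (-1.30 ± 0.06). Adam33, a gene of mesenchymal cells linked to airway hyperresponsiveness, fell 2.95-fold in DPP4_neg (104.2 to 35.2, -1.56 ± 0.14, adjusted p = 1.99e-09) and 5.84-fold in DPP4_pos cells (580.4 to 98.8, -2.55 ± 0.14, adjusted p = 1.79e-13). Under vehicle it was 5.57-fold higher in DPP4_pos cells (2.48 ± 0.14, adjusted p = 6.71e-13). Adam15 rose in DPP4_neg (2556 to 2913, 0.19 ± 0.04, adjusted p = 0.000873; 0.0901 after quantile normalization) and fell in DPP4_pos cells (2729 to 2371, -0.20 ± 0.04, adjusted p = 0.000232), with 20.6% of its exon bases shared with an antisense gene.

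Adam11, Adam22 and Adam23 lack the catalytic residues and are known as adhesion proteins. Adam23 was the most abundant of them in counts, with means of 4040 and 3946 in DPP4_neg (-0.03 ± 0.03, adjusted p = 0.382; -0.13 ± 0.03 and adjusted p = 0.00127 after quantile normalization) and 8948 and 6647 in DPP4_pos cells (-0.43 ± 0.03, adjusted p = 1.5e-10). Adam22 was 5.81-fold higher in DPP4_pos cells under vehicle (29.4 and 175.0, 2.54 ± 0.12, adjusted p = 3.89e-14). It rose in DPP4_neg cells (0.43 ± 0.12, adjusted p = 0.00363) and fell in DPP4_pos cells (-0.45 ± 0.12, adjusted p = 0.00173; 0.442 after quantile normalization). Adam11 fell in both (means 29.9 to 17.2 and 44.7 to 16.8).

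The remaining ADAMs were low. Adam8, a protease of leukocytes, was at 53.4, 47.7, 38.1 and 102.2 in DPP4_neg vehicle, 41.3, 197.5, 298.1 and 107.6 in DPP4_neg isoproterenol, 129.1, 78.8, 46.1 and 61.7 in DPP4_pos vehicle and 153.9, 158.5, 77.5 and 218.0 in DPP4_pos isoproterenol libraries. The macrophage and leukocyte sums of the same libraries were 450.7, 568.6, 565.6 and 1072, then 745.0, 1799, 1956 and 1185, then 1429, 724.6, 612.0 and 708.0, then 1145, 1340, 691.2 and 1900. Within every group the library with the highest Adam8 also had the highest sum, and the part of leukocytes in its levels was not tested. The rise in DPP4_neg cells (1.17 ± 0.44, adjusted p = 0.0255) had overlapping groups and lost the call without DPP4_neg vehicle replicate 2 or 3 or DPP4_neg isoproterenol replicate 2 or 3 (0.76 to 1.09). The DPP4_pos difference was 0.95 ± 0.44 (adjusted p = 0.0537), and it passed without DPP4_neg vehicle replicate 4, DPP4_neg isoproterenol replicate 1 or 3, DPP4_pos vehicle replicate 1 or DPP4_pos isoproterenol replicate 3 (0.95 to 1.24). Adam4 and Adam5, genes known from the testis, had values of 4.46 to 18.8 and 28.9 to 139.7 across all libraries. In DPP4_pos cells Adam4 ranged from 4.46 to 6.27 under vehicle and, without overlap, from 13.2 to 18.8 with isoproterenol. Adam5 was 3.05-fold higher in DPP4_pos cells under vehicle (1.61 ± 0.16, adjusted p = 7.67e-09). Adam1a, for which 63.7% of the exon bases are shared with neighbouring genes and which has a near copy in Adam1b, is uncertain, with means of 15.2 to 28.8.

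Among 32 matching genes below the filter, 4 had no read in any library (Adam20, Adam39, Adam6a and Adam6b). The nearest to the threshold was Adamts17, at 10 or more in 3 libraries. Just inside it were Adamts8, at 10 or more in 4 libraries, and Adamts16, in 5. In all, 37 of the 47 members were at 10 or more in all 16 libraries. The others were Adamts8, Adamts16, Adam4, Mmp25, Mmp9, Mmp12, Mmp16, Mmp8, Adam1a and Mmp27.

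Proteases of other families that act on the same matrix were also measured. Of 12 tested, 8 rose and 2 fell in DPP4_neg cells and 7 rose and 1 fell in DPP4_pos cells, and 10 were higher in DPP4_pos cells under vehicle. Of all genes, 32.1% rose and 33.6% fell in DPP4_neg, 39.4% rose and 43.3% fell in DPP4_pos cells, and 31.6% were higher in DPP4_pos cells under vehicle. Their median log2 response was 0.32 in DPP4_neg and 0.49 in DPP4_pos cells, beside -0.02 and -0.05 for all genes tested. Tll1, which removes the C-propeptide of procollagens, rose from a mean of 58.0 to 2673 in DPP4_neg (5.52 ± 0.12, adjusted p = 2.52e-20) and from 31.7 to 2801 in DPP4_pos cells (6.43 ± 0.12, adjusted p = 8.19e-22). Its relative Tll2 had 2, 6 and 15 reads in the DPP4_neg vehicle, DPP4_neg isoproterenol and DPP4_pos vehicle groups and 175 in the DPP4_pos isoproterenol group. Its means in DPP4_pos cells were 3.06 under vehicle and 65.4 with isoproterenol. Tll2 passed the filter wholly or mainly through the DPP4_pos isoproterenol libraries, so its higher level there, and the counts that hold it, are a description. The plasminogen activators rose too, Plau by 1.88 ± 0.03 and 2.05 ± 0.03 and Plat by 1.09 ± 0.06 and 1.85 ± 0.06 in DPP4_neg and DPP4_pos cells. Htra1, a serine protease, rose by 1.18 ± 0.06 in DPP4_pos cells. Fap, the fibroblast activation protein and a relative of Dpp4, was higher in DPP4_pos cells under vehicle (500.2 and 3068, 2.62 ± 0.07, adjusted p = 1.31e-18), as were the cathepsins Ctsk (1.63 ± 0.05) and Ctsb (1.12 ± 0.04) and the serine protease Htra3 (1.30 ± 0.05).

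Of 16 partners, activators and clearance genes tested, 7 rose and 7 fell in DPP4_neg cells and 7 rose and 5 fell in DPP4_pos cells, with medians of -0.05 and 0.04, beside 65.7% and 82.7% of all genes called. The proprotein convertases Furin and Pcsk5, which cut the prodomains of many ADAMs, ADAMTS enzymes and membrane-type MMPs, rose by 0.67 ± 0.04 and 1.46 ± 0.05 in DPP4_neg and by 1.18 ± 0.04 and 2.21 ± 0.05 in DPP4_pos cells. Reck, a membrane-anchored inhibitor of MMPs, was higher in DPP4_pos cells under vehicle (955.0 and 2961, 1.63 ± 0.05, adjusted p = 1.42e-17) and fell by 1.33 ± 0.05 there with isoproterenol (adjusted p = 2.1e-16). Pcolce and Pcolce2, which enhance procollagen C-propeptide removal, were higher in DPP4_pos cells under vehicle (1.13 ± 0.04 and 2.36 ± 0.05). Rhbdf2, a cofactor that carries ADAM17 to the surface, was lower in DPP4_pos cells under vehicle (-1.10 ± 0.10, adjusted p = 3.96e-09). Of the tetraspanins that steer ADAM10, Tspan15 fell in DPP4_neg cells (25.5 to 7.78, -1.61 ± 0.32, adjusted p = 0.00015) and Tspan17 fell in DPP4_pos cells (474.4 to 210.5, -1.17 ± 0.08, adjusted p = 1.29e-11).

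Among 7 ADAMTS-like genes, which hold the ancillary domains without the protease, 1 rose and 4 fell in DPP4_neg cells and 2 rose and 5 fell in DPP4_pos cells, with medians of -0.26 and -0.40, beside 33.6% and 43.3% of all genes lower. Adamtsl2 rose from means of 6.31 to 159.1 (4.48 ± 0.18, adjusted p = 1.25e-15) and 19.7 to 265.1 (3.71 ± 0.18, adjusted p = 1.42e-14). Adamtsl1 was higher (2.16 ± 0.05) and Adamtsl3 lower (-2.67 ± 0.09) in DPP4_pos cells under vehicle. Papln fell by 1.76 ± 0.11 in DPP4_neg cells and Adamtsl5 by 1.23 ± 0.08 in DPP4_pos cells.

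Of 21 genes whose proteins ADAM10 and ADAM17 are known to shed, 19 passed the filter and were tested. Of these, 12 rose and 6 fell in DPP4_neg cells and 14 rose and 4 fell in DPP4_pos cells, beside 32.1% and 39.4% of all genes higher. Their median log2 responses were 0.67 and 0.52, beside -0.02 and -0.05 for all genes. The EGF family ligand Ereg rose by 1.04 ± 0.15 and 2.91 ± 0.15. Hbegf, of the same family, fell in DPP4_neg cells (126.6 to 77.3, -0.71 ± 0.14, adjusted p = 0.000153) and rose in DPP4_pos cells (39.5 to 170.9, 2.10 ± 0.14, adjusted p = 8.34e-12). Areg had 1 read in each vehicle group and 95 and 167 reads in the isoproterenol groups, ratios of normalized reads of 133 (95% counting interval 23.4 to 5319) and 297 (52.7 to 11818). It passed the filter through the isoproterenol groups, so these ratios are a description. Notch2 rose by 1.95 ± 0.05 and 2.63 ± 0.05, the TNF receptor Tnfrsf1b by 1.54 ± 0.05 and 1.37 ± 0.05, and Sdc1, a heparan sulfate proteoglycan of the cell surface, by 2.85 ± 0.05 and 1.80 ± 0.05. The ligand Tgfa rose by 1.02 ± 0.11 in DPP4_neg cells and Btc by 1.10 ± 0.24 in DPP4_pos cells, where Cdh2, N-cadherin, and the chemokine Cxcl16 fell by 1.35 ± 0.06 and 1.29 ± 0.06. Cx3cl1, a membrane-bound chemokine, was lower in DPP4_pos cells under vehicle (-2.04 ± 0.09). Il1r2, the decoy receptor of interleukin-1, was far higher in DPP4_pos cells under vehicle (17.9 and 411.6, 4.45 ± 0.11, adjusted p = 5.96e-19).

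The substrates in the matrix moved little, apart from Vcan and Fbn2. Of 14 proteoglycan, collagen and related genes tested, 2 rose and 5 fell in DPP4_neg cells and 1 rose and 8 fell in DPP4_pos cells, with medians of -0.04 and -0.23, beside 33.6% and 43.3% of all genes lower. Vcan encodes versican, which ADAMTS1, ADAMTS4, ADAMTS5, ADAMTS9 and ADAMTS15 are known to cut, and it rose from means of 5905 to 59002 (3.32 ± 0.06, adjusted p = 8.57e-22) and 7963 to 71856 (3.17 ± 0.06, adjusted p = 8.83e-22). Fbn2, fibrillin-2, fell by 2.01 ± 0.10 and 2.54 ± 0.10. The small proteoglycans Dcn and Lum and the collagen Col3a1 were higher in DPP4_pos cells under vehicle (1.80 ± 0.07, 2.34 ± 0.09 and 1.28 ± 0.05).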

How the data were processed

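RNA of 16 libraries (4 in each of 4 groups, assigned by the labels) was sequenced. According to the notes the submitters gave on processing, Trim Galore 0.4.1, featureCounts 1.4.6, HISAT2 2.0.1 and the genome builds GRCm38 and mm10 were used, together with DESeq2 1.6.3. Their settings are not known here. The deposited signal is the read count per gene divided by a size factor of the library, per the file headers and the values. Whole reads were recovered for 100.0% of 280334 values above 0 (within 0.001). Entries without a symbol held 0.0926% of the counts and were not tested.

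Genes at 10 or more in at least 4 libraries (14005) were tested with limma 3.58.1 (R 4.3.3, trended variance) on log2(normalized count + 1), which understates changes of low genes. All 16 libraries entered 1 fit of 4 group means, and p-values were adjusted by Benjamini-Hochberg over all genes. The test was tested on simulated data. Where a group of Adamts16 or Areg held few reads, a ratio of reads with its 95% exact interval, which covers counting error only, was given in the report in place of a fitted fold. Alternatives were other pseudocounts, filters and scalings, a fit of only the compared libraries, a replicate block, edgeR 4.0.16 and DESeq2 1.42.0 on recovered reads, and leaving out each library. Exon lengths came from GENCODE M21 and promoters from RefSeq.

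Genes given library by library were the 5 with the largest called, non-overlapping difference in each response, under vehicle between populations and in the difference of responses (mean of at least 50), and 10 fixed by name. Adam8 was added after its values were seen. Other pathway genes were named for a called log2 difference of at least 1 in a response or between the vehicle groups. The members and lists were chosen with earlier results of these data known.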

Additional observations from a re-analysis of the deposited data

Results flagged for a closer look

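In 10 of 188 groups of 4 libraries, 1 library stood apart from the other 3 by more than Dixon's limit, and chance flags about 1 group in 20. These were Adamts14 in DPP4_pos isoproterenol replicate 1 (152.8 normalized counts), Adamts2 in DPP4_pos vehicle replicate 4 (24835) and DPP4_pos isoproterenol replicate 3 (29208), Adam4 in DPP4_neg vehicle replicate 1 (13.7), Adam33 in DPP4_pos vehicle replicate 4 (615.9) and Mmp16 in DPP4_pos isoproterenol replicate 1 (15.7), all above their group. Mmp9 was low in DPP4_neg vehicle replicate 2 (1.95) and high in DPP4_neg isoproterenol replicate 1 (37.3). Adamts9 in DPP4_pos vehicle replicate 1 (316.4) and Adam12 in DPP4_neg vehicle replicate 4 (5534) were below their group.

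The response to isoproterenol differed between the populations for 29 members by the limma test of the difference itself (DPP4_pos minus DPP4_neg, log2). Adamts16 (-2.22) and Mmp25 (1.20) are among them, but both passed the filter mainly through the groups in which they are high, and Adamts16 had 3 and 8 reads in the DPP4_neg groups, so their fitted values are a description. The response was more positive in DPP4_pos cells for Adamts9 (1.53), Adamts6 (1.38), Mmp17 (1.22), Adamts3 (0.55), Adamts4 (0.28) and Adam10 (0.21). It was more negative for the ADAMTS genes Adamts15 (-1.64), Adamts7 (-1.37), Adamts10 (-0.62), Adamts14 (-0.42) and Adamts1 (-0.14). Among the MMPs and inhibitors it was more negative for Mmp2 (-1.15), Mmp19 (-1.12), Mmp28 (-0.94), Mmp11 (-0.75), Mmp15 (-0.67), Mmp3 (-0.59), Mmp23 (-0.28), Timp1 (-0.29) and Timp2 (-0.16). The ADAMs with a more negative response were Adam33 (-0.99), Adam22 (-0.89), Adam12 (-0.75), Adam17 (-0.56), Adam15 (-0.39), Adam23 (-0.39) and Adam19 (-0.25).

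Of these, the Adamts1 difference had adjusted p = 0.0467 by limma and lost the call without DPP4_neg vehicle replicate 1 or 4, DPP4_neg isoproterenol replicate 1 or 4, DPP4_pos vehicle replicate 1, 2 or 4, or DPP4_pos isoproterenol replicate 2, 3 or 4 (-0.10 to -0.14). The Adamts14 difference (adjusted p = 0.0498) lost it without any library but DPP4_neg vehicle replicate 2, DPP4_neg isoproterenol replicate 1 and DPP4_pos isoproterenol replicate 1 (-0.35 to -0.45). The Adam10 difference was 0.15 with TMM factors (adjusted p = 0.0949) and 0.16 with edgeR (adjusted p = 0.0719).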

How the results depend on the processing

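Under 26 alternatives no count of called members moved by more than 1.5 times. Of 181 called member differences, 148 were called in the same direction wherever they were tested and 27 lost the call at least once with the same sign. Another 22, not called in the main fit, gained a call with the same sign. Differences that changed sign, and were called in the main fit or in the alternative, are counted apart as reversed. Uncalled differences that changed sign without a call are not counted as reversed. Quantile normalization, which forces all libraries to the same distribution, reversed 13. In the DPP4_pos response these were Adam10 (-0.28), Adamts14 (0.37), Adamts2 (-0.04), Adamts3 (0.52), Mmp14 (-0.32), Mmp15 (0.10), Mmp19 (-0.18), Mmp28 (0.08) and Mmp3 (-0.18). In the difference of the responses they were Adam10 (-0.06), Adam9 (-0.31), Adamts2 (-0.24) and Adamts4 (-0.10). The cause was not tested. Leaving out single libraries gave 14 to 17 members higher and 18 to 22 lower in the DPP4_neg response, 12 to 13 and 26 to 27 in the DPP4_pos response, 24 to 27 and 12 between populations under vehicle, and 22 to 24 and 14 to 15 with isoproterenol. Over all genes, replicate numbers did not pair the libraries, since 24 correlations of same-numbered libraries ran from -0.231 to 0.131 and 1 was over 0.1. Correlations over all genes do not settle this for single genes, and Timp3 was lowest in replicate 2 of every group. With a replicate block, 16 members were higher and 21 lower in DPP4_neg, 12 and 26 in DPP4_pos, 25 and 12 under vehicle, 24 and 15 with isoproterenol, and 8 and 20 responses differed. The Timp3 responses then differed (0.18 ± 0.05, limma adjusted p = 0.00494). At a mean of at least 50, 10 members could not be tested. Depth limits Adamts16, Adamts8, Mmp12, Mmp25 and Adam4, each with few reads per library.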
